A study of Sus scrofa with 12 samples.

Results

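The genes described here are interferon-stimulated effectors, that is, genes whose products carry out the antiviral and antigen-presenting work of an interferon response. A list of 43 symbols was set by function, with sensors, STAT factors and IRF factors left out, and 39 of them had a row by gene name among the 31908 genes of the expression table. Earlier results of these data were known when the list was set, so it is not independent of them. Of these 39, 35 are antiviral and other effectors and 4 (PSMB8, PSMB9, TAP1 and B2M) serve antigen presentation. GBP1, IFIT3, RTP4 and XAF1 had no row under their symbol. GBP1 was found by its identifier (ENSSSCG00000024973) and is given separately.

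RNA-seq had been run on porcine muscle satellite cells, the stem cells of skeletal muscle, in 12 libraries that form 4 groups of 3. Control cells, titled WT and named NC in the table, were collected at 0h (proliferation) and at 60h (differentiation), and so were cells of the arm titled CBP. The arm was read as treatment with SGC-CBP30, a bromodomain inhibitor of the acetyltransferases CBP and p300, which the protocol states for 48 h in proliferation and 60 h in differentiation. That text stands on every sample, controls included, and the groups stand under a genotype tag, so a compound and a genetic change cannot be told apart from the labels, and the arm is called the CBP arm below. The control treatment and any earlier exposure of the 60h cells are not given. The cell line is named C3H, usually a mouse name, although the organism and genome build are pig. Nothing states that replicates are separate cultures or animals, so p-values measure the spread between these libraries, which may be technical.

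Type I interferons bind the receptor pair IFNAR1 and IFNAR2, and the kinases JAK1 and TYK2 then activate STAT factors, which enter the nucleus with IRF9 and switch on many genes. The products block viral entry, translation and replication, tag proteins with ISG15, or prepare peptides for MHC class I. Many of these genes keep a low level in unstimulated cells.

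Depth ranged from 16095335 reads (CBP arm 0h, replicate 3) to 19155240 reads (control 0h, replicate 1). All 8 muscle lineage markers were expressed, and their summed level was 1549 to 1566 FPKM in control cells and 391 to 426 FPKM in the CBP arm at 0h, and 2301 to 2479 and 1411 to 1539 FPKM at 60h. Single markers did not all follow the sum: all 8 were lower in the CBP arm at 0h (limma, adjusted p under 0.05), but at 60h 3 were higher and 4 lower than in control cells, and from 0h to 60h in control cells 3 were higher and 4 lower. The 9 leukocyte markers summed to 5.82 to 6.57 FPKM (control 0h), 6.48 to 7.98 (CBP arm 0h), 4.65 to 5.20 (control 60h) and 3.91 to 4.72 (CBP arm 60h). Over all 12 libraries CD3E had 0 reads, PTPRC 2, CD163 8, TYROBP 28, CSF1R 39, AIF1 72, ITGAM 343, CD68 973 and CD14 1175. CD14 and CD68 were tested, and CD14 moved as most members did, higher at 60h in control cells by 0.34 (SE 0.09, limma adjusted p = 0.00706) and lower in the CBP arm at 60h by 0.78 (SE 0.09, adjusted p = 1.08e-05), while CD68 was lower at 60h in control cells and higher in the CBP arm at 60h. The 5 endothelial markers summed to 1.17 to 3.97 FPKM. All 5 fibroblast markers rose from 0h to 60h in both arms, from summed levels of 784 to 812 FPKM to 3069 to 3222 FPKM in control cells and from 401 to 418 FPKM to 1777 to 1963 FPKM in the CBP arm. COL1A1 made up most of these sums, and at 60h 2 of the 5 (LUM and PDGFRA) were higher in the CBP arm, 1 (COL1A1) was lower and 2 were not called. The 4 smooth muscle markers summed to 2570 to 2672 FPKM in control cells and 796 to 848 FPKM in the CBP arm at 0h, where 4 of 4 were lower, and to 2603 to 2630 and 1546 to 1637 FPKM at 60h, where 3 were lower and 1 higher. The part of these cell type markers in the results below was not tested.

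Values are FPKM, read numbers divided by gene length and by the library total. Each log2 change was taken on log2(FPKM + 1) values, where changes of low genes come out too small, and is given with its standard error (SE). Means are given with their SD over n = 3 libraries. A gene was tested where its FPKM was 1 or more in at least 3 libraries, which left 11636 genes and 37 of the 39 members, and was called at an adjusted p under 0.05 over all 11636. In bulk samples, fewer cells of a type and less RNA per cell cannot be told apart.

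In control cells the effectors rose steeply from 0h to 60h, while in the CBP arm most did not. The 35 antiviral and other effectors together stood at 153 ± 0.689 FPKM in control cells at 0h and 661 ± 57.1 FPKM at 60h, against 197 ± 11.06 and 203 ± 7.69 FPKM in the CBP arm. The 4 antigen presentation genes went from 54.5 ± 0.910 to 94.3 ± 4.86 FPKM in control cells and from 53.9 ± 4.06 to 54.2 ± 2.51 FPKM in the CBP arm. Abundant genes weigh most in such sums, and B2M made up most of this one. In the CBP arm B2M rose from 32.2 to 42.8 FPKM while PSMB8, PSMB9 and TAP1 fell, so the level sum hides changes of single genes. For both sums the control libraries at 60h lay above every other library, and for the effectors the CBP arm at 60h lay within the range of the CBP arm at 0h.

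In control cells 32 of the 37 tested members were higher at 60h than at 0h, 2 were lower and 3 were not called (limma). Among all tested genes 28.8% were called higher and 38.0% lower. The median log2 change was 1.31 over the tested members and -0.05 over all tested genes. PARP14, PARP9, CMPK2, MX2 and RSAD2 entered the test only through the control libraries at 60h, where they are high, and therefore had to differ. Without these 5, 27 of 32 were higher and 2 lower. OAS1 and DTX3L also needed the control libraries at 60h to pass. Besides those, only 1 and 2 libraries of the CBP arm at 0h reached 1 FPKM for them. Both are still among the 32, so their higher calls were largely built in too.

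At 60h, 35 of the 37 tested members were lower in the CBP arm than in control cells, 1 (SAMHD1) was higher and 1 (ADAR) was not called (limma). Among all tested genes 27.0% were called lower and 44.7% higher. The median log2 difference was -1.34 over the tested members and 0.10 over all tested genes, and without the 5 members named above 30 of 32 were lower and 1 higher. The 32 still hold OAS1 and DTX3L, which also needed the control libraries at 60h to pass. This comparison and the rise in control cells share the 3 control libraries at 60h.

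**Figure D1:**
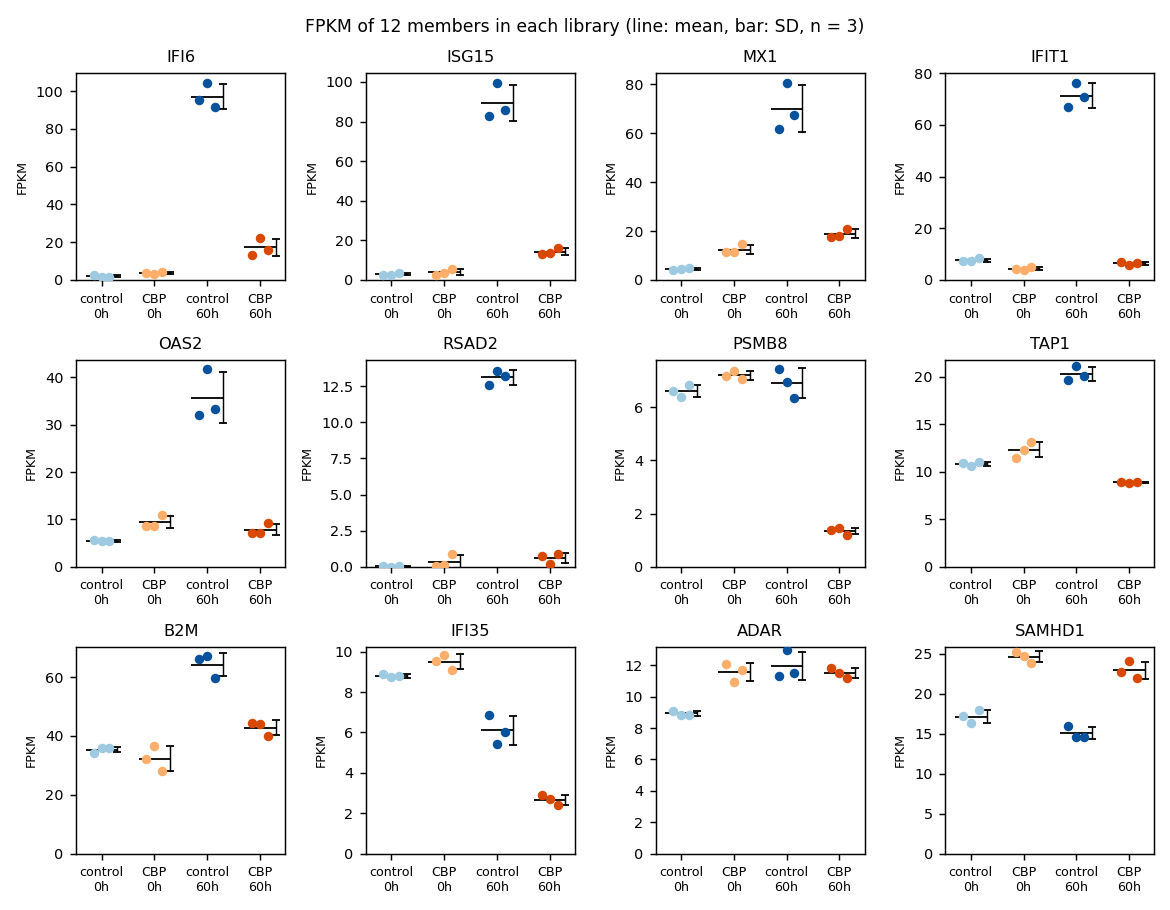
FPKM (vertical axes, linear, from 0) of 12 members in each library, with points for the 3 libraries of each group, a line for the mean and a bar for the SD. The control libraries at 60h stand apart for IFI6, ISG15, MX1, IFIT1, OAS2 and RSAD2, PSMB8 and IFI35 are lowest in the CBP arm at 60h, and SAMHD1 is higher in the CBP arm at both times.

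IFI6, a small membrane protein of the endoplasmic reticulum and mitochondria that limits viral replication, had the largest rise of the tested members on the log2(FPKM + 1) scale (ENSSSCG00000034570, chromosome 6, 84852782 to 84858072, Sscrofa11.1). With a pseudocount of 0.1 RSAD2 came first (6.56, against 5.55 for IFI6), and by the ratio of means RSAD2 rose 297-fold, from 7 reads, and IFI6 48.4-fold. It stood at 2.53, 1.80 and 1.68 FPKM in control cells at 0h and at 95.3, 104 and 91.8 FPKM at 60h, and at 3.44, 3.14 and 4.17 FPKM and then 13.4, 22.3 and 16.0 FPKM in the CBP arm. The 4 groups did not overlap, and the CBP arm at 60h lay between both 0h groups and the control cells at 60h. The rise was 5.04 (SE 0.16, limma adjusted p = 9.49e-11) in control cells and 1.97 (SE 0.16, adjusted p = 2.27e-07) in the CBP arm, and the difference between arms at 60h was -2.46 (SE 0.16, adjusted p = 3.71e-08).

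ISG15 is a ubiquitin-like protein that is joined to newly made proteins during an interferon response (ENSSSCG00000040575, chromosome 6, 63363201 to 63364211). Its levels in control cells were 2.31, 2.75 and 3.31 FPKM at 0h and 82.8, 99.5 and 85.7 FPKM at 60h, and in the CBP arm 2.67, 3.68 and 5.78 FPKM at 0h and 12.9, 13.9 and 16.3 FPKM at 60h. The arms overlapped at 0h and were apart at 60h, where the CBP arm differed by -2.56 (SE 0.18, limma adjusted p = 1.01e-07). ISG15 rose by 4.58 (SE 0.18, adjusted p = 6.86e-10) in control cells and by 1.65 (SE 0.18, adjusted p = 4.77e-06) in the CBP arm. An uncharacterised gene, LOC110261384, overlaps ISG15 in the annotation, and the strand setting of the counting is not given, so reads of the pair cannot be told apart.

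Genes that attach or remove ISG15 were also highest in control cells at 60h. USP18, the protease that takes ISG15 off its targets and damps signalling at IFNAR2, went from 1.50 ± 0.192 to 13.3 ± 2.22 FPKM in control cells and from 1.84 ± 0.430 to 2.50 ± 0.0543 FPKM in the CBP arm. HERC5, which joins ISG15 to proteins in human cells, went from 1.19 ± 0.0441 to 6.79 ± 0.992 FPKM in control cells and stood at 1.68 ± 0.230 and 1.48 ± 0.264 FPKM in the CBP arm. HERC6, a related ligase next to HERC5 on the chromosome, stood at 2.07 ± 0.0782, 12.9 ± 1.79, 2.19 ± 0.387 and 1.88 ± 0.163 FPKM in the same order. All 4 genes of this group were called lower in the CBP arm at 60h, by 1.65 to 2.56 on the log2 scale, against 27.0% of all tested genes called lower. UBE2L6, the conjugating enzyme of ISG15 and no member of the list, was 8.75 ± 1.16 FPKM in control cells and 3.10 ± 0.501 FPKM in the CBP arm at 60h, a called difference of -1.25 (SE 0.10, limma adjusted p = 2.41e-07). The activating enzyme UBA7 had 1, 9, 13 and 4 reads in control 0h, CBP arm 0h, control 60h and CBP arm 60h and was not tested.

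MX1 (ENSSSCG00000012077, chromosome 13, 204843049 to 204868927), a dynamin-like GTPase that traps viral nucleocapsids, was the tested member with the largest difference between arms at 0h on the log2(FPKM + 1) scale. It stood at 4.24, 4.34 and 5.01 FPKM in control cells and at 11.3, 11.3 and 14.5 FPKM in the CBP arm at 0h, and at 61.9, 80.7 and 67.6 FPKM and 17.6, 18.0 and 21.0 FPKM at 60h. The CBP arm was thus above control cells at 0h and below them at 60h, with no overlap at either time. The difference was 1.27 (SE 0.11, limma adjusted p = 1.41e-06) at 0h and -1.83 (SE 0.11, adjusted p = 2.64e-08) at 60h. MX2, its neighbour on the chromosome and a related GTPase, had 48 and 87 reads at 0h and 1974 and 155 reads at 60h in control cells and the CBP arm, and kept 7.61% of the control level at 60h. MX2 entered the test only through the control libraries at 60h, so a low share was built into its choice.

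RSAD2 (viperin), an enzyme that makes a chain-terminating nucleotide, was close to silent outside control cells at 60h (ENSSSCG00000008648, chromosome 3, 128880853 to 128897809). It stood at 0.0566, 0 and 0.0759 FPKM in control cells at 0h, 7 reads in all, and at 12.6, 13.5 and 13.2 FPKM at 60h, 1990 reads. In the CBP arm it stood at 0.0592, 0.118 and 0.876 FPKM at 0h and at 0.740, 0.210 and 0.872 FPKM at 60h. Replicate 3 of the CBP arm at 0h held 39 of that group's 48 reads, and was the highest of the 3. The change from 0h to 60h in the CBP arm was 0.28 (SE 0.20, limma adjusted p = 0.233), and 0.54 (adjusted p = 0.00739) without that library. With limma voom on whole reads of all libraries, an alternative chosen after seeing the data, the change was 1.48 and was called (adjusted p = 0.0482). CMPK2, a nucleotide kinase that supplies viperin's substrate and lies next to it on the chromosome, stood at 0.198 ± 0.116 and 6.57 ± 0.887 FPKM in control cells at 0h and 60h and at 0.560 ± 0.187 and 0.578 ± 0.169 FPKM in the CBP arm.

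The IFIT proteins bind viral RNA ends and hold back its translation. IFIT1 (ENSSSCG00000010452, chromosome 14, 101237403 to 101249486) stood at 7.25, 7.51 and 8.32 FPKM in control cells at 0h and at 67.0, 76.4 and 70.7 FPKM at 60h, and in the CBP arm at 4.24, 3.82 and 5.20 FPKM and then 6.89, 5.64 and 6.72 FPKM. The CBP arm was below control cells at both times without overlap, by -0.69 (SE 0.09, limma adjusted p = 5.04e-05) at 0h and -3.29 (SE 0.09, adjusted p = 3.51e-11) at 60h. IFIT2, its neighbour in the gene cluster, was also below control cells at both times, with 6.31 ± 0.426 and 12.8 ± 0.976 FPKM in control cells at 0h and 60h and 4.64 ± 0.0545 and 2.92 ± 0.0486 FPKM in the CBP arm. From 0h to 60h within the CBP arm IFIT1 was called higher and IFIT2 lower. IFIT1 and IFIT2 were the tested members called lower in the CBP arm at 0h. IFIT5 stood at 19.1 ± 0.372 and 19.1 ± 0.965 FPKM in control cells and at 18.9 ± 0.352 and 16.2 ± 1.05 FPKM in the CBP arm, and was lower at 60h by 0.23 (SE 0.05, adjusted p = 0.000828). The IFIT genes are related and LIPA overlaps IFIT1 and IFIT2 in the annotation, so the division of reads among these genes is uncertain. How alike their sequences are was not examined.

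Enzymes that act on double-stranded RNA split by how far they rose. OAS2, which makes the oligoadenylates that activate RNase L, stood at 5.58, 5.40 and 5.35 FPKM in control cells at 0h and at 32.0, 41.8 and 33.2 FPKM at 60h. The CBP arm had 8.71, 8.70 and 11.0 FPKM at 0h and 7.06, 7.24 and 9.20 FPKM at 60h, so it was above control cells at 0h, below them at 60h, and its own times overlapped. OAS1, next to OAS2 and also an oligoadenylate synthetase, was lower in level, at 0.388 ± 0.292 and 5.44 ± 0.501 FPKM in control cells and 0.757 ± 0.495 and 0.300 ± 0.274 FPKM in the CBP arm. It rested on 22, 300, 39 and 17 reads in that order, and 1 library of the CBP arm at 60h had none. RPH3A overlaps OAS1 in the annotation. OASL had 2, 5, 1 and 1 reads and was not tested.

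EIF2AK2, the kinase PKR that stops translation on sensing double-stranded RNA, rose from 6.36 ± 0.284 to 18.0 ± 1.77 FPKM in control cells and stood at 10.2 ± 0.418 and 10.1 ± 0.424 FPKM in the CBP arm. ADAR, the deaminase that edits double-stranded RNA, stood at 9.10, 8.83 and 8.85 FPKM in control cells at 0h and at 11.3, 13.0 and 11.5 FPKM at 60h, with 12.1, 10.9 and 11.7 FPKM and 11.8, 11.5 and 11.2 FPKM in the CBP arm. Control cells at 0h were below the other 3 groups, which overlapped one another. The arms differed by 0.34 (SE 0.05, limma adjusted p = 0.000115) at 0h. At 60h the difference was -0.04 (SE 0.05, adjusted p = 0.456), a difference within the spread between libraries that was called lower after median-of-ratios scaling. CHRNB2 overlaps ADAR in the annotation.

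**Figure D2:**
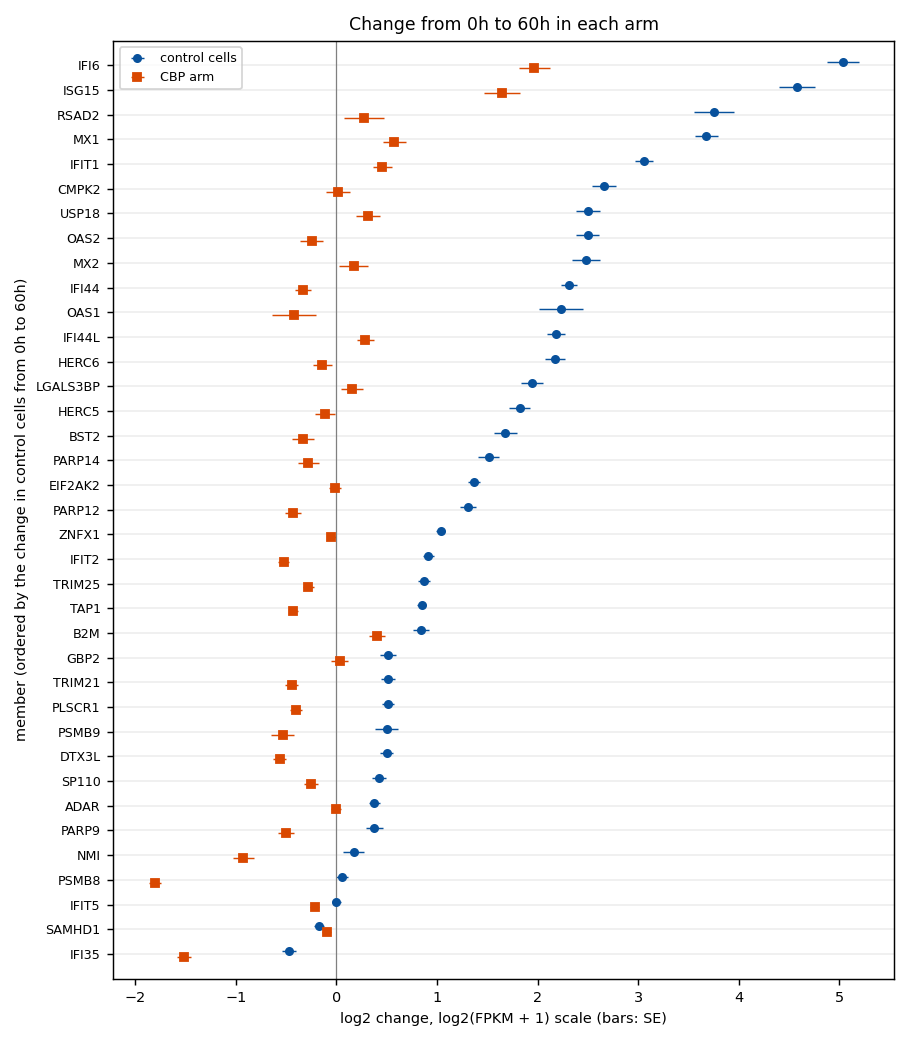
Change from 0h to 60h on the log2(FPKM + 1) scale (horizontal axis) for the 37 tested members, ordered by the change in control cells, with circles for control cells, squares for the CBP arm and bars for the SE. Control cells reach 5.04 (IFI6), while in the CBP arm IFI6 at 1.97 and ISG15 at 1.65 are the members above 1 and most others lie near or below 0.

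From 0h to 60h within the CBP arm, 7 of the 37 tested members were higher, 17 were lower and 13 were not called (limma). Among all tested genes 31.3% were called higher and 41.5% lower. The 7 that rose were IFI6, ISG15, MX1, IFIT1, B2M, USP18 and IFI44L. MX1 rose by 0.58 (SE 0.11, adjusted p = 0.000567), IFIT1 by 0.46 (SE 0.09, adjusted p = 0.000814), and USP18 by 0.31 (SE 0.12, adjusted p = 0.0301), a call that was lost with no filter on low values and when either of replicates 1 and 2 of the CBP arm at 0h, or any 1 library of it at 60h, was left out. All 7 had also risen in control cells, as had 32 of the 37 tested members. The share of all genes called higher in both arms was not computed.

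Of the 32 members that rose in control cells, 13 fell in the CBP arm and 12 were not called there. Among all tested genes 41.5% were called lower in the CBP arm, so the share that fell was near that of genes in general. The share of all genes with a rise in control cells and a fall in the CBP arm was not computed. The 13 members that fell were IFIT2, the 4 genes of the PARP and DTX3L group, TRIM21, TRIM25, PSMB9, TAP1, IFI44, SP110, BST2 and PLSCR1. The falls ran from 0.25 on the log2 scale (SP110, a call lost with TPM scaling) to 0.57 (DTX3L). PARP14 fell by 0.28 (SE 0.11, adjusted p = 0.0326), a call lost without replicate 3 of the CBP arm at 0h or replicate 2 at 60h, with no filter on low values (adjusted p = 0.0524) and with only the groups compared in the fit (adjusted p = 0.0718). BST2 fell by 0.33 (SE 0.11, adjusted p = 0.0182), a call lost without replicate 2 at 0h, without replicate 1 or 2 at 60h, or with TPM scaling. In 14 of the 34 members with a mean of 1 FPKM or more over all libraries, the mean of the CBP arm at 60h was below the control mean at 0h, among them PSMB8, IFI35, NMI, IFIT1, IFIT2 and OAS1. The share of all genes with this order was not computed, so the count is a description only.

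PARP9 and DTX3L form an ADP-ribosyl and ubiquitin ligase pair that supports interferon signalling, and PARP12 and PARP14 are related ADP-ribosyltransferases. PARP14 had the largest rise of these 4, from 0.292 ± 0.0157 to 2.70 ± 0.295 FPKM in control cells, beside 0.566 ± 0.215 and 0.286 ± 0.127 FPKM in the CBP arm. PARP12 went from 1.75 ± 0.0994 to 5.83 ± 0.773 FPKM in control cells and from 2.17 ± 0.192 to 1.34 ± 0.0646 FPKM in the CBP arm. DTX3L (0.861 ± 0.0447 to 1.63 ± 0.115 FPKM in control cells) and PARP9 (0.760 ± 0.110 to 1.29 ± 0.180 FPKM) rose less and kept 20.0% and 20.1% of the control level at 60h. These shares rest on 74 and 58 reads in the CBP arm at 60h. Both genes had a mean under 1 FPKM over all libraries, so they are not among the shares summarised below. The last pair overlap by 395 bases on chromosome 13, so some of their reads may be shared. All 4 were called higher at 60h in control cells, lower at 60h in the CBP arm than in control cells, and lower at 60h than at 0h within the CBP arm. Among all tested genes 28.8%, 27.0% and 41.5% were called so in these comparisons. PARP14 and PARP9 entered the test only through the control libraries at 60h, and DTX3L needed them to pass. Their calls in the comparisons with those libraries were therefore largely built in.

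The ubiquitin ligases TRIM21, a receptor for antibodies in the cytosol, and TRIM25, which acts on the RNA sensor RIG-I, changed less. TRIM25 went from 8.03 ± 0.0798 to 15.5 ± 0.978 FPKM in control cells and from 11.9 ± 0.756 to 9.65 ± 0.677 FPKM in the CBP arm. TRIM21 went from 4.81 ± 0.258 to 7.32 ± 0.817 FPKM and from 6.14 ± 0.386 to 4.24 ± 0.0649 FPKM. In both, the CBP arm was above control cells at 0h and below them at 60h without overlap.

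Among the further restriction and membrane effectors, BST2 (tetherin), which holds budding virions at the cell surface, went from 1.94 ± 0.213 to 8.43 ± 0.994 FPKM in control cells and from 2.89 ± 0.534 to 2.08 ± 0.337 FPKM in the CBP arm. ZNFX1, a helicase that binds double-stranded RNA at mitochondria, went from 9.76 ± 0.267 to 21.1 ± 1.04 FPKM in control cells and stood at 12.6 ± 0.437 and 12.1 ± 0.492 FPKM in the CBP arm. PLSCR1, a phospholipid scramblase, went from 5.02 ± 0.325 to 7.58 ± 0.188 FPKM and from 5.70 ± 0.460 to 4.07 ± 0.214 FPKM. The exonuclease gene ISG20 had 3, 11, 8 and 1 reads in control 0h, control 60h, CBP arm 0h and CBP arm 60h and was not tested.

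SAMHD1, which breaks down the nucleotides that retroviruses need, went against the other members at 60h (ENSSSCG00000027806, chromosome 17, 40117348 to 40171935). Its levels were 17.2, 16.3 and 17.9 FPKM in control cells and 25.3, 24.7 and 23.9 FPKM in the CBP arm at 0h, and 16.0, 14.6 and 14.6 FPKM and 22.7, 24.0 and 22.0 FPKM at 60h. The CBP arm was higher at both times without overlap, by 0.50 (SE 0.05, limma adjusted p = 2.24e-06) at 0h and 0.57 (SE 0.05, adjusted p = 3.30e-07) at 60h. In control cells it was lower at 60h by 0.17 (SE 0.05, adjusted p = 0.00561), which was no longer called with TPM or median-of-ratios scaling. TLDC2 overlaps SAMHD1 in the annotation.

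Of the 6 other interferon-induced members, IFI44 and IFI44L, neighbours on chromosome 6, rose most. IFI44 went from 1.99 ± 0.0915 to 13.8 ± 1.54 FPKM in control cells and from 3.27 ± 0.182 to 2.39 ± 0.272 FPKM in the CBP arm, and IFI44L from 2.68 ± 0.0850 to 15.8 ± 2.06 FPKM and from 5.00 ± 0.452 to 6.33 ± 0.554 FPKM. The neighbours thus moved in opposite directions within the CBP arm, by -0.33 (SE 0.08, limma adjusted p = 0.00197) and 0.29 (SE 0.09, adjusted p = 0.00914). LGALS3BP, a secreted glycoprotein that binds galectins, stood at 8.08 ± 0.526 and 34.0 ± 3.69 FPKM in control cells and 11.4 ± 0.590 and 13.0 ± 2.52 FPKM in the CBP arm. SP110, a nuclear body protein, changed least of those that rose, from 4.26 ± 0.345 to 6.07 ± 0.614 FPKM in control cells, with 4.67 ± 0.282 and 3.77 ± 0.153 FPKM in the CBP arm. LOC106508139 and SP140 overlap SP110 in the annotation.

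IFI35 and NMI, partner proteins of the interferon response, were not called higher in control cells at 60h. IFI35 stood at 8.91, 8.73 and 8.77 FPKM at 0h and at 6.84, 5.43 and 6.04 FPKM at 60h in control cells, a called fall of 0.47 on the log2 scale (SE 0.07, limma adjusted p = 7.76e-05). In the CBP arm it went from 9.55, 9.82 and 9.10 FPKM to 2.90, 2.71 and 2.41 FPKM, so that the CBP arm at 60h lay below every other library. NMI stood at 6.07 ± 0.450 and 6.95 ± 0.0897 FPKM in control cells and at 5.56 ± 0.931 and 2.44 ± 0.414 FPKM in the CBP arm. Its control libraries did not overlap between times, and the change of 0.17 (SE 0.10, adjusted p = 0.166) was called higher with only the groups compared in the fit (adjusted p = 0.0264).

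GBP2, a guanylate-binding protein that attacks the membranes of intracellular pathogens, differed little between arms. It stood at 1.62, 1.86 and 1.94 FPKM in control cells at 0h and 2.71, 3.02 and 3.31 FPKM at 60h, and at 2.05, 2.19 and 2.70 FPKM and 2.50, 2.30 and 2.34 FPKM in the CBP arm. The groups were apart between arms at each time and the 2 times of the CBP arm overlapped. The difference at 60h was -0.24 (SE 0.08, limma adjusted p = 0.0185), and this call was lost without control replicate 3 or without replicate 2 of the CBP arm at 60h. Its neighbour GBP1, found by identifier on chromosome 4 (127425699 to 127442132) and not counted among the members, stood at 0.889 ± 0.0828 and 3.88 ± 0.471 FPKM in control cells and 1.42 ± 0.169 and 0.833 ± 0.0656 FPKM in the CBP arm.

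The antigen presentation genes were lower in the CBP arm at 60h in 4 of 4 cases, against 27.0% of all tested genes, but they differed in how control cells behaved. PSMB8, PSMB9 and TAP1 lie side by side on chromosome 7 (25058456 to 25077508). PSMB8 and PSMB9 are the inducible catalytic subunits of the immunoproteasome and TAP1 is 1 chain of the peptide transporter into the endoplasmic reticulum. PSMB8 stood at 6.61, 6.39 and 6.84 FPKM in control cells at 0h and 7.42, 6.96 and 6.33 FPKM at 60h, which overlap (0.05, SE 0.06, limma adjusted p = 0.443). In the CBP arm it stood at 7.17, 7.36 and 7.04 FPKM at 0h and 1.39, 1.44 and 1.20 FPKM at 60h, a fall of 1.81 (SE 0.06, adjusted p = 6.31e-11). The difference between arms at 60h was -1.75 (SE 0.06, adjusted p = 1.27e-10), with 156 reads in the CBP arm and 779 in control cells.

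TAP1 stood at 10.9, 10.6 and 11.0 FPKM at 0h and 19.7, 21.2 and 20.1 FPKM at 60h in control cells, and at 11.5, 12.3 and 13.1 FPKM and 8.89, 8.87 and 8.91 FPKM in the CBP arm. The 4 groups did not overlap, and the CBP arm at 60h was the lowest. TAP1 rose by 0.85 (SE 0.04, limma adjusted p = 6.95e-09) in control cells and fell by 0.43 (SE 0.04, adjusted p = 2.54e-06) in the CBP arm. PSMB9, 143 bases from TAP1, was low, with 1.68, 1.89 and 1.66 FPKM at 0h and 2.78, 3.13 and 2.72 FPKM at 60h in control cells, and 1.65, 2.28 and 2.58 FPKM and 1.36, 0.864 and 1.32 FPKM in the CBP arm. The arms overlapped at 0h and were apart at 60h, by -0.84 (SE 0.12, adjusted p = 3.59e-05).

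B2M, the light chain of MHC class I, was the most abundant member at 0h (ENSSSCG00000004687). It stood at 34.4, 35.7 and 35.8 FPKM in control cells at 0h and 66.0, 67.0 and 59.7 FPKM at 60h, and at 32.3, 36.5 and 27.9 FPKM and 44.3, 44.2 and 39.9 FPKM in the CBP arm. The arms overlapped at 0h, and at 60h the CBP arm lay between its own 0h level and that of control cells. It rose by 0.84 (SE 0.08, limma adjusted p = 1.46e-06) in control cells and by 0.40 (SE 0.08, adjusted p = 0.000593) in the CBP arm. The reference table holds more than 1 entry for B2M, so its reads may be split between copies.

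**Figure D3:**
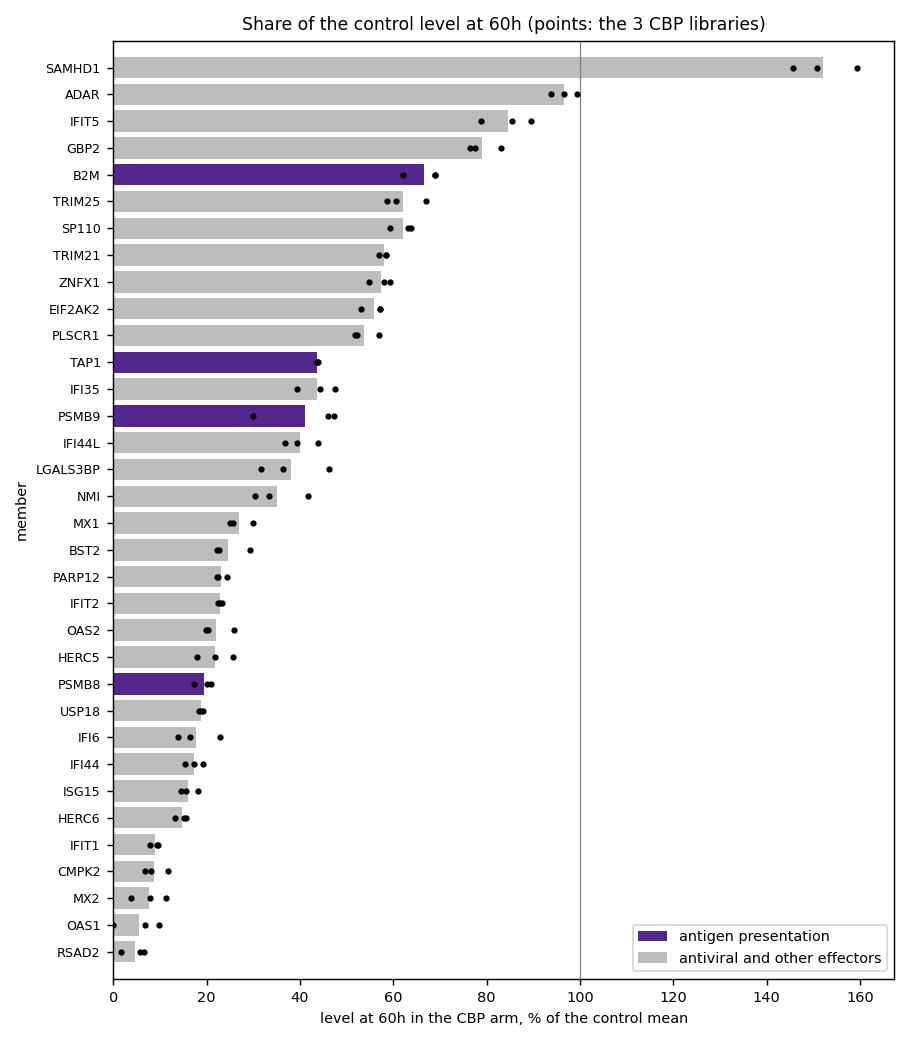
Level at 60h in the CBP arm as a percentage of the control mean (horizontal axis, linear from 0) for the 34 members with a mean of 1 FPKM or more, with bars for the ratio of means, points for the 3 libraries of the CBP arm and a line at equal levels. Shares run from 4.63% (RSAD2) to 152% (SAMHD1), and the 4 antigen presentation genes spread from 19.5% to 66.6%.

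The share of the control level found in the CBP arm at 60h was computed for the 34 members with a mean of 1 FPKM or more over all libraries. The median was 31.0%, 23 members were below 50% and 16 below 25%. The shares of all genes below these bounds were not computed, so the counts are a description only. Both counts include RSAD2, MX2, CMPK2 and OAS1, whose low shares were built in, as given below. The 5 lowest shares were those of RSAD2 (4.63%), OAS1 (5.52%), MX2 (7.61%), CMPK2 (8.80%) and IFIT1 (8.99%), which had 95, 17, 155, 94 and 789 reads in the CBP arm at 60h. RSAD2, MX2 and CMPK2 had entered the test only through the control libraries at 60h, the denominator of the share, so low shares were built into their choice. Without these 3 the median over 31 members was 38.1%. OAS1 also reached a mean of 1 FPKM only with the control libraries at 60h. Its means in control 0h, CBP arm 0h and CBP arm 60h were 0.388, 0.757 and 0.300 FPKM. Its low share was thus built in too, and it remains in the 31 and in the 27 effectors given below. The 5 highest were those of SAMHD1 (152%), ADAR (96.6%), IFIT5 (84.6%), GBP2 (79.0%) and B2M (66.6%). Both ends held antiviral effectors, and the antigen presentation genes were spread, with PSMB8 at 19.5%, PSMB9 at 41.1%, TAP1 at 43.7% and B2M at 66.6%. Their median was 42.4%, against 25.8% for the 30 other effectors and 35.1% for 27 of them without RSAD2, MX2 and CMPK2. The ranges overlapped, and the difference was not tested.

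The rise in control cells and the share kept did not give one order. IFI6 and ISG15, which rose 48.4-fold and 32.1-fold by the ratio of means, kept 17.7% and 16.1%, and IFIT1, which rose 9.28-fold, kept 8.99%. RSAD2 had the largest ratio of means of the tested members and the lowest share, and its share was built into its choice. PSMB8, with no called rise, kept 19.5%. No correlation is given, since both measures use the control libraries at 60h.

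At 0h the CBP arm was higher than control cells in 20 of the 37 tested members and lower in 2, with 15 not called (limma). Among all tested genes 44.2% were called higher and 18.1% lower, so the share of members higher was not far from that of genes in general. The median log2 difference was 0.27 over the tested members and 0.12 over all tested genes. Median-of-ratios scaling shifted the median over all tested genes by 0.12, and with it 14 members were higher and 4 lower (IFIT1, IFIT2, IFIT5 and B2M). Of the 20, 13 were called higher under every alternative run, and PARP14, PARP12, PLSCR1, HERC5, GBP2, CMPK2 and TAP1 were not. PARP14 was nearest the threshold (0.27, SE 0.11, adjusted p = 0.0451), and without replicate 3 of the CBP arm at 0h PARP14, PARP12, HERC5, GBP2 and CMPK2 were no longer called. Leaving out any 1 of the other 5 libraries at 0h took away 2 to 5 of these 7 calls.

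MX1 (1.27), IFI44L (0.70), OAS2 (0.69), EIF2AK2 (0.61) and IFI6 (0.61) had the largest of these differences at 0h on the log2(FPKM + 1) scale. The SE ranged from 0.06 for EIF2AK2 to 0.16 for IFI6. In total, 18 members were called higher in the CBP arm at 0h and lower in it at 60h, 2 comparisons that share no library, against 5.42% of all tested genes. Of these 18, 11 kept both calls under every alternative run, and the other 7 are those named above whose call at 0h was lost in some alternative. Among these 7, 2 (CMPK2 and PARP14) had entered the test only through control cells at 60h. Their lower call at 60h was therefore built into their choice.

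**Figure D4:**
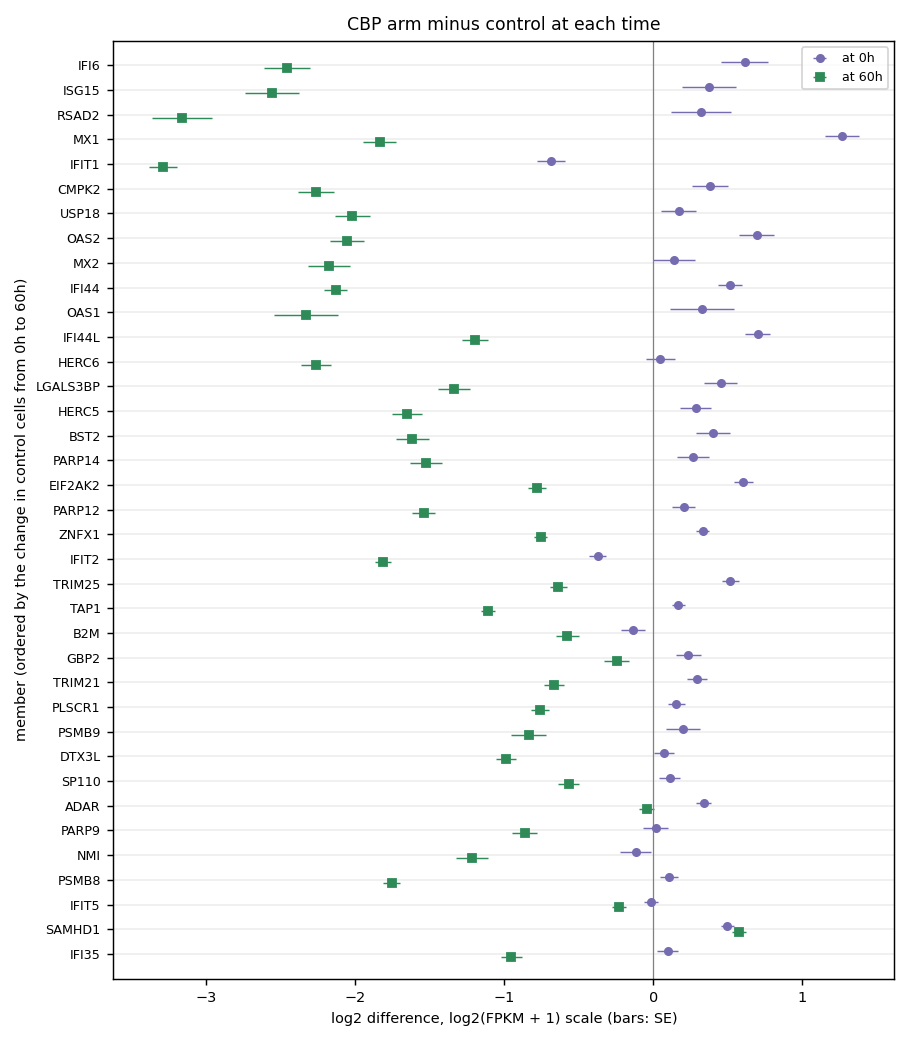
CBP arm minus control cells on the log2(FPKM + 1) scale (horizontal axis) at 0h (circles) and at 60h (squares) for the 37 tested members, ordered by the change in control cells, with bars for the SE. Most circles lie at or right of 0, up to 1.27 (MX1), and all squares but that of SAMHD1 (0.57) lie left of 0, down to -3.29 (IFIT1).

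The difference between arms at 60h minus that at 0h, the interaction, was called lower in 36 of the 37 tested members and higher in 0 (limma). Among all tested genes 26.7% were called lower and 24.3% higher. At an unadjusted p under 0.05 the count of higher members was also 0, and limma voom on whole reads gave 36 lower and 0 higher. The median was -1.74 over the tested members and -0.01 over all tested genes, and without the 5 members that entered the test only through control cells at 60h, 31 of 32 were lower. The 32 still hold OAS1 and DTX3L, which also needed those libraries to pass. RSAD2 (-3.48, SE 0.28), MX1 (-3.10, SE 0.16), IFI6 (-3.07, SE 0.22), ISG15 (-2.93, SE 0.26) and OAS2 (-2.75, SE 0.16) were furthest from 0 on the log2(FPKM + 1) scale. SAMHD1 was the exception, at 0.08 (SE 0.07, adjusted p = 0.362), and IFIT5 lay nearest the threshold at -0.21 (SE 0.07, adjusted p = 0.0173).

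Genes upstream of the members moved in more than 1 direction, and the counts of the lists that follow stand beside 44.7% of all tested genes higher and 27.0% lower in the CBP arm at 60h. Among the ligands, IFNA1 and IFNG had 0 reads in all libraries and IFNB1 had 1 read each in control cells and the CBP arm at 60h, which limits what can be said of them at this depth. Both type I receptor chains were higher in the CBP arm at 60h, IFNAR1 with 37.0 ± 1.26 against 17.4 ± 0.324 FPKM and IFNAR2 with 11.6 ± 0.240 against 6.51 ± 0.531 FPKM, while the type II chains IFNGR1 and IFNGR2 were lower. Of 5 tested ligand and receptor genes, 3 were higher and 2 lower.

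Of 9 tested kinases, STAT and IRF factors, 3 were higher and 2 lower in the CBP arm at 60h, shares near those of all tested genes. STAT2 was not called at 60h (0.10, SE 0.06, limma adjusted p = 0.112), and the 3 that were higher were JAK1, TYK2 and STAT3. IRF1 was lower by 0.33 (SE 0.05, adjusted p = 0.000161) and IRF7 was not called (-0.06, SE 0.08, adjusted p = 0.530). IRF9 had 2, 20, 49 and 26 reads in control 0h, CBP arm 0h, control 60h and CBP arm 60h and was not tested.

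Of 7 tested genes of nucleic acid sensing, 5 were lower in the CBP arm at 60h and 1, the adaptor MAVS, was higher. ZBP1, a sensor of left-handed nucleic acid, stood at 4.08 ± 0.943 FPKM in control cells and 0.258 ± 0.0133 FPKM in the CBP arm at 60h, and the RNA sensor IFIH1 at 4.46 ± 0.104 and 0.801 ± 0.0594 FPKM. TLR3, the endosomal receptor for double-stranded RNA, stood at 11.08 ± 0.913 and 2.87 ± 0.155 FPKM. Of 13 tested further interferon targets outside the list, 10 were lower in the CBP arm at 60h and 3 were not called. Examples were the antiviral protein SAMD9 (9.38 ± 0.387 and 2.59 ± 0.377 FPKM) and the ligase TRIM22 (16.6 ± 1.10 and 7.15 ± 0.249 FPKM). Of 5 tested feedback genes, 3 were higher and 1 lower.

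Of 9 tested further genes of antigen presentation, 4 were lower and 4 higher in the CBP arm at 60h, against 27.0% and 44.7% of all tested genes. TAP2, the partner of TAP1, fell from 14.4 ± 0.544 FPKM in control cells to 5.80 ± 0.168 FPKM, and the peptide-trimming enzyme ERAP1 from 6.05 ± 0.149 to 1.91 ± 0.125 FPKM. NLRC5, the activator of MHC class I genes, and the immunoproteasome subunit PSMB10 were also lower. The chaperones CALR, CANX and PDIA3, which also fold other glycoproteins, and CIITA, the activator of MHC class II genes, were higher. PSMB7, the constitutive counterpart of PSMB10, was lower by 0.62 (SE 0.05, limma adjusted p = 2.22e-07).

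The tested non-members whose 4 group means were most like the mean pattern of the members, by Pearson's r over those 4 means, were ACP6, GBP1, METTL8, DUSP15 and RRS1. Of 11599 tested non-members, 29 reached an r of 0.99 or more. An r over only 4 points says little, so this is a description of pattern only. ACP6 stood at 7.12, 8.11, 11.4 and 7.05 FPKM in control 0h, CBP arm 0h, control 60h and CBP arm 60h.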

How the data were processed

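The deposited table holds 1 column of FPKM values per library, with replicates not pooled. Per the submitters' processing notes, Trimmomatic trimmed the reads and featureCounts counted them, on build Sscrofa11.1 and with no versions. No source used here names the aligner, the annotation release or the strand setting. Genes without a symbol kept their identifier, and positions come from the RefSeq table of the same build. Whole reads were recovered from the FPKM steps for 22521 of 22521 genes above 0 and served for depth, read numbers and 1 alternative chosen after seeing the data (limma voom).

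The log2(FPKM + 1) values of the 11636 genes that passed the filter were fitted with limma 3.58.1 (R 4.3.3) as 4 group means over 12 libraries, with trended empirical Bayes, two-sided tests and Benjamini-Hochberg adjustment within each of 5 comparisons. The procedure was tested on simulated data. Replicate numbers did not pair libraries, with correlations of same-numbered deviations from -0.0935 to 0.082. Full statistics went to the 5 largest rises, the 5 lowest and 5 highest shares kept, the antigen presentation genes, ISG15, MX1, OAS1, members against the majority and those nearest the threshold. The others are given by level. The members and lists were chosen with earlier results of these data known. Alternatives changed the pseudocount, filter, scaling, fitted samples, spread estimate, replicate block and libraries. No sequences are printed. Some further genes of the pathway and marker lists are not reported here.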

Additional observations from a re-analysis of the deposited data

Results flagged for a closer look

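The effect of the CBP arm differed between 0h and 60h for most tested members. The test of that difference (limma, interaction of arm and time over 11636 genes) called 36 of 37 tested members lower and 0 higher, and 0 were higher at an unadjusted p under 0.05 or by limma voom. Among all tested genes 26.7% were called lower and 24.3% higher. RSAD2, CMPK2, MX2, PARP14 and PARP9 entered the test only through control cells at 60h, and without these 5, 31 of 32 were lower. OAS1 and DTX3L, which also needed those libraries to pass, are still among the 32. Among the members with full statistics the interaction on the log2(FPKM + 1) scale was -3.48 for RSAD2, -3.10 for MX1, -3.07 for IFI6, -2.93 for ISG15, -2.65 for OAS1, -2.64 for CMPK2, -2.60 for IFIT1 and -2.31 for MX2. It was -1.86 for PSMB8, -1.28 for TAP1, -1.03 for PSMB9, -0.48 for GBP2, -0.44 for B2M, -0.38 for ADAR and -0.21 for IFIT5. Each was called in the replicated fit and under every alternative that tested it.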

How the results depend on the processing

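Over the alternatives, 3799 of 3883 results of single members kept their direction and their side of the threshold, 65 lost a call, 19 gained one and 0 reversed. All 32 rises in control cells, 34 of the 35 lower calls at 60h and all 36 interactions were kept under every alternative that tested them, as were 13 of the 20 higher calls at 0h. Requiring a mean of 5 FPKM left 22 members in the test, which gave 17 higher in control cells at 60h, 20 lower in the CBP arm at 60h, 10 lower at 60h within the CBP arm, and 21 lower interactions, and a median share kept of 41.9%. Median-of-ratios and TPM scaling each left 1 member lower in control cells at 60h, and median-of-ratios scaling gave 4 lower in the CBP arm at 0h. With the replicate block the counts were 32, 35, 20 and 36 for the rise in control cells, lower at 60h, higher at 0h and interaction, with PARP14 losing its call at 0h and ISG15 gaining one. Leaving out 1 library gave 27 to 32, 29 to 35, 15 to 20 and 31 to 36 for the same counts, and a median share kept of 28.6% to 32.0%. Leaving out any control library at 60h took 5 members out of the test. Calls on few reads (OAS1, RSAD2) and small differences at 0h are limited by depth and by 3 libraries a group.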

Other observations

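Within groups the libraries were not interchangeable over the 39 members with a row. Among control cells at 60h, replicate 2 held the highest value in 32 members and replicate 1 the lowest in 28, and the summed level of the 35 effectors was 618, 726 and 640 FPKM in replicates 1, 2 and 3. In the CBP arm at 0h, replicate 3, the library with the fewest reads, held the highest value in 25 members, with summed levels of 191, 190 and 210 FPKM. The members share each library, so these counts are not independent.

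Among the interferon targets outside the list, DDX60, a helicase that promotes RNA sensing, was lower in the CBP arm at both times. It stood at 7.63 ± 0.393 FPKM in control cells and 1.57 ± 0.334 FPKM in the CBP arm at 0h, and at 5.63 ± 0.491 and 0.780 ± 0.104 FPKM at 60h (n = 3). The differences were -1.76 (SE 0.09, limma adjusted p = 1.34e-08) and -1.90 (SE 0.09, limma adjusted p = 2.78e-09) on the log2 scale, and its interaction was not called (-0.14, SE 0.13, limma adjusted p = 0.378). It was named after its values were seen.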
